A study of Mus musculus with 57 samples.

Results

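Astrocytes wrap brain vessels and the brain surface with endfeet, and these carry a membrane complex that moves water, potassium and chloride. The 8 genes of that complex described here were picked by symbol from a table of 21118 genes: Aqp4, Kcnj10, Kcnj16, Mlc1, Hepacam, Dtna, Dag1 and Clcn2. All 8 were found. The rule uses no measured value, though the members were chosen with earlier results of these data known. RNA on the ribosomes of astroglia in the cerebral cortex was read from 53 libraries by translating ribosome affinity purification (TRAP), in which tagged ribosomes are pulled out of tissue with their messages. All mice, at every age, carried the Aldh1l1-L10-GFP transgene on a C57BL/6 background, so a GFP-tagged ribosomal protein L10 was made under the control of Aldh1l1, an astrocyte gene. There is no genotype without the transgene and no unpurified input among the libraries. Ages were P1, P4, P7, P14 and P35 (postnatal days) and adult, for which the labels give no day. Libraries labelled female numbered 4, 4, 8, 5, 3 and 4 at these ages in that order, and libraries labelled male 4, 4, 4, 5, 3 and 5. The study asks how the astroglial translatome changes with age and sex.

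On the build GRCm38, Kcnj10 lies at chr1:172341210-172374085 and Kcnj16 at chr11:110968033-111027968. Mlc1 lies at chr15:88955884-88979007, Hepacam at chr9:37367351-37386575, Dag1 at chr9:108204634-108263958 and Clcn2 at chr16:20702964-20717746. Aqp4 and Dtna are on chromosome 18. Exons of Clcn2 share 85 bases with Fam131a and 82 bases with Polr2h, both on the opposite strand, or 1.41% and 1.36% of its exon bases, and the strand setting of the counting is not given in the sources used here.

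Total counts ran from 14768178 to 48541139 per library with a median of 24033399. A digit in each library's label is shared across ages and is called its replicate set here (1, 2, 3, 4 or 6), and 4 libraries at P7 that came from a second sequencing run alone form a set of their own. The set was a term in every fit except where stated, and was left out of the tests of ratios between members. Several libraries went against their labels or stood apart. Sex-linked transcripts lay against or between the labelled sexes in 12 libraries. In P1 female 4, 10085 genes reached 10 counts, while all but 2 of the other libraries had 15531 or more such genes. P7 male 6 had a summed level of 12.3 CPM (counts scaled to library size) for 3 cell division markers and 2975 CPM for 7 oligodendrocyte markers, where the other P7 libraries had 38.9 to 107 and 237 to 599 CPM. P14 male 6 had 47.0 and 321 CPM, where the other P14 libraries had 6.80 to 18.4 and 612 to 2422 CPM. Both therefore lie outside the range of their labelled age. Some results, mainly of adults against P1, are also given without the 15 libraries of these kinds, while those of the members by sex are not. The purified RNA held the 12 astrocyte markers at a summed 3426 to 23589 CPM in adults and 638 to 4759 CPM at P1, but also 12 neuronal markers at 2909 to 12028 CPM in adults and 1726 to 9270 CPM at P1.

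The genes fall into 3 assemblies. Aqp4 encodes the main water channel of astrocytes, which gathers in the endfoot membrane facing the vessel. Kcnj10 and Kcnj16 encode inward rectifier potassium channel subunits that can join in one channel and help astrocytes take up potassium released by neurons. Mlc1 and Hepacam encode a membrane protein and an adhesion protein (GlialCAM) that sit together at astrocyte junctions, and loss of either causes a leukodystrophy with brain swelling in humans. GlialCAM also brings the chloride channel encoded by Clcn2 to these junctions. Dag1 encodes dystroglycan, which binds laminin and agrin outside the cell and dystrophin inside, and Dtna encodes alpha-dystrobrevin of the same complex, which holds the water channel in place.

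Promoter windows of 4 members are shown because they set 3 genes that rose between P1 and adult beside Dag1, which did not pass that test. They run from 250 bases before to 50 after a transcription start and were taken from RefSeq on GRCm38.p6, in which 6 of the 8 members were matched. For genes with several starts, the one nearest the annotated gene start was used. Capitals mark a nuclear factor I core (TTGGC, on either strand) or a SOX core (ACAAAG, on either strand), motifs of transcription factor families active in astrocytes, and no 2 matches overlap.
Kcnj10, chr1:172340960-172341259, plus strand: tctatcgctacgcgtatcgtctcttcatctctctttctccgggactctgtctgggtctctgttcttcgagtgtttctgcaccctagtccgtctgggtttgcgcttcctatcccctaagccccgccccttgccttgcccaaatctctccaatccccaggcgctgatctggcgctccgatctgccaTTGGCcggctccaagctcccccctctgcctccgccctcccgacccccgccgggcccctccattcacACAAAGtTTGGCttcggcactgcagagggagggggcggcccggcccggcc
Kcnj16, chr11:110967783-110968082, plus strand: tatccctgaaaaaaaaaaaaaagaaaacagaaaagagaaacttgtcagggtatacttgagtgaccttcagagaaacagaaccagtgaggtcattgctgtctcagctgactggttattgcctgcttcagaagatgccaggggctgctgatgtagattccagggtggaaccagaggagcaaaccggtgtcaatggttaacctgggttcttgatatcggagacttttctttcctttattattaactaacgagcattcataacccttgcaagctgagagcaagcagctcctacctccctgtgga
Hepacam, chr9:37367356-37367655, plus strand: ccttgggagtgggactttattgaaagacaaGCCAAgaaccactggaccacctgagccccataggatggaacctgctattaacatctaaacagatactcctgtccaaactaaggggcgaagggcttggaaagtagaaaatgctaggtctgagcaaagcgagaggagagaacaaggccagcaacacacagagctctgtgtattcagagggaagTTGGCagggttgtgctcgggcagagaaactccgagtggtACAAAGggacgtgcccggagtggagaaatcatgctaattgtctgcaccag
Dag1, chr9:108263909-108264208, minus strand: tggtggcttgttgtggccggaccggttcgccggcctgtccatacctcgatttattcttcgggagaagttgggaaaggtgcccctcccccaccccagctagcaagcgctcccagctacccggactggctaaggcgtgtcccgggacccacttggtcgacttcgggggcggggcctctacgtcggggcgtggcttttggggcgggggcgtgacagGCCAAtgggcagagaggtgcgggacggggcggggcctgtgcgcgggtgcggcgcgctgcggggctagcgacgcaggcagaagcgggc
The nuclear factor I core was in 46.7% and the SOX core in 18.7% of the 32851 windows in the table. Kcnj10 and Hepacam each held 2 nuclear factor I cores and 1 SOX core, which began at the transcription start itself in both, Dag1 held 1 nuclear factor I core and Kcnj16 held neither. Counts of CpG were 21 in Kcnj10, 3 in Kcnj16, 6 in Hepacam and 30 in Dag1, against a median of 7 over all windows. Of the matched members not shown, Mlc1, which rose, held 3 CpG, 1 nuclear factor I core and 0 SOX cores. Clcn2, which did not pass, held 13 CpG and neither core. The windows shown were picked by the test result, so they are no comparison of genes that rose with genes that did not. Matches describe letters only and say nothing about factor binding.

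Aqp4 was higher in adults than at P1. Adult libraries ran from 27.8 to 444 CPM with a median of 248, and P1 libraries from 20.1 to 381 CPM with a median of 46.6. The ages overlapped, since P1 female 1 (381 CPM) exceeded all but 1 adult library and adult male 60 (27.8 CPM) lay within the P1 range. With replicate set and sex in the model the difference was 1.50 ± 0.27 on the log2 scale (SE), or 2.82-fold (edgeR adjusted p = 2.26e-05). Between these ages the median was 141 CPM at P4, 119 at P7, 207 at P14 and 144 at P35. In purified bulk RNA, a lower share of astrocytes in a library and less message per astrocyte cannot be told apart.

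**Figure D1:**
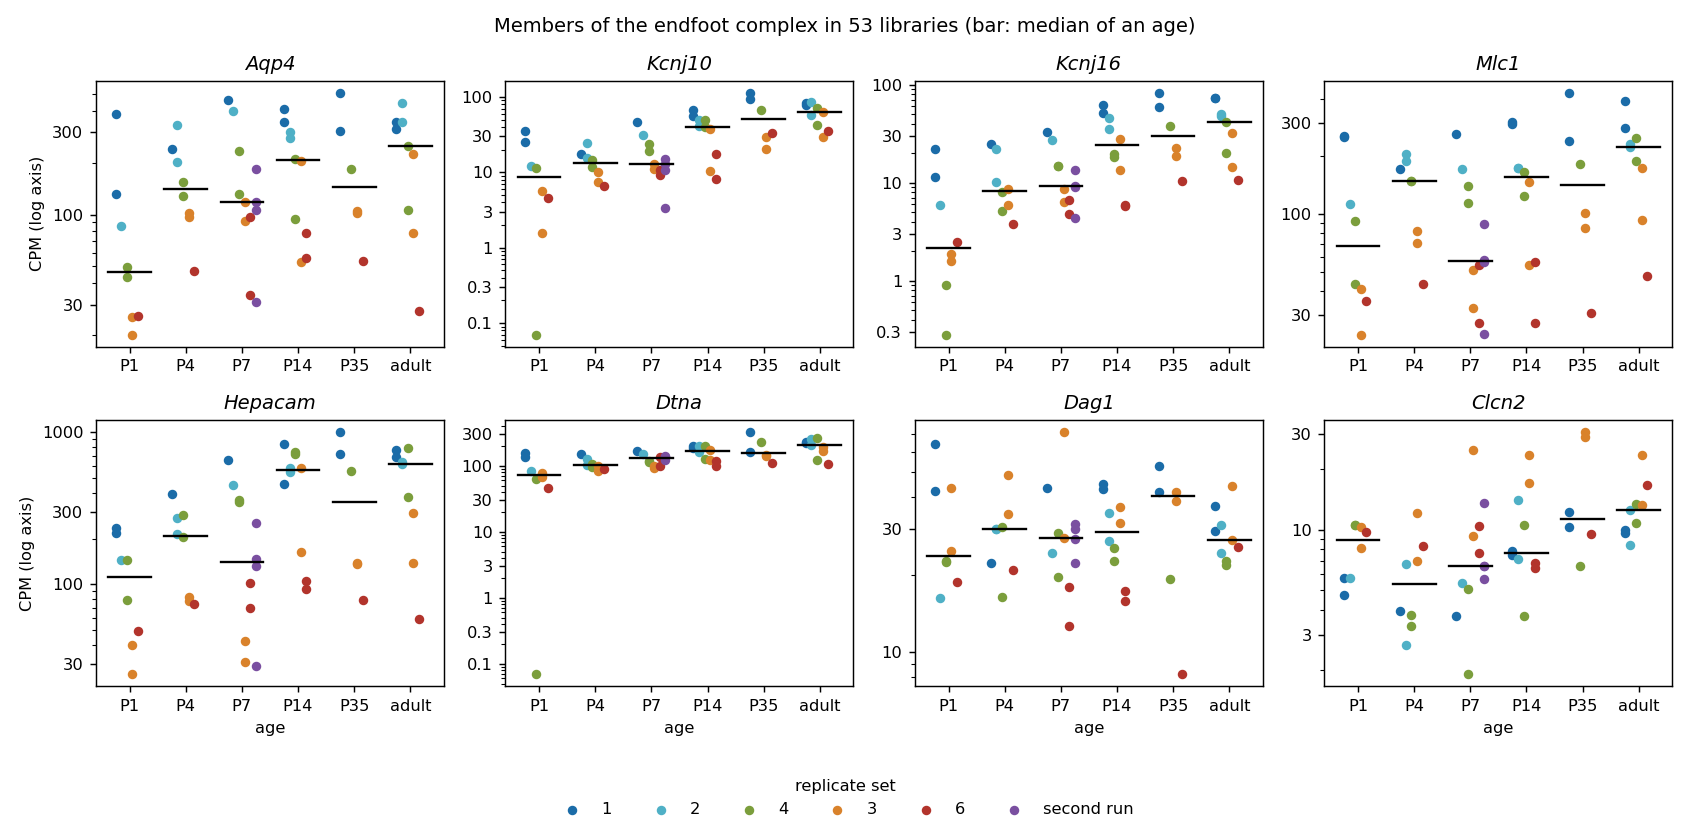
Level of each of the 8 genes in CPM (log axis) in 53 libraries by age, 1 point per library, coloured by replicate set, with bars at the median of an age. Medians of Kcnj10 and Kcnj16 are lowest at P1 (8.65 and 2.18) and highest in adults (63.9 and 41.1), Dag1 stays between 8.23 and 71.3 CPM, and points of sets 3 and 6 lie low for Aqp4, Mlc1 and Hepacam; P1 female 4 has 0.0703 CPM of Kcnj10 and Dtna.

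The potassium channel pair had the largest fitted differences among the 8 members. Kcnj10 ran from 29.1 to 86.4 CPM in adults with a median of 63.9, and from 0.0703 to 35.1 CPM at P1 with a median of 8.65. Of 9 adult libraries, 8 exceeded every P1 library. The fitted difference was 2.67 ± 0.39 (log2 ± SE, 6.34-fold, edgeR adjusted p = 3.72e-07). Kcnj16 ran from 10.7 to 73.0 CPM in adults with a median of 41.1, and from 0.281 to 21.8 CPM at P1 with a median of 2.18. For this gene 6 of 9 adult libraries lay above every P1 library, and the difference was 3.11 ± 0.33 (8.63-fold, edgeR adjusted p = 4.10e-10). Medians of Kcnj10 were 13.1 CPM at P4, 12.9 at P7, 40.3 at P14 and 50.1 at P35. Those of Kcnj16 were 8.26, 9.16, 23.9 and 30.0 CPM at the same ages. These medians pool the replicate sets, and 8 of the 12 P7 libraries are of sets 3 and 6 or the second run alone, where astrocyte markers were lower than in set 1. P1 female 4, the library with the fewest genes, held 1 count of Kcnj10 and 4 of Kcnj16. With the 15 doubtful libraries left out, which include this one, both channels passed the test again.

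Mlc1 and Hepacam, the junction pair, also rose. Mlc1 ran from 47.6 to 387 CPM in adults with a median of 224, and from 23.6 to 254 CPM at P1 with a median of 68.0. The ranges overlapped widely, with 2 of 9 adult libraries above every P1 library, and the difference was 1.14 ± 0.25 (log2 ± SE, 2.20-fold, edgeR adjusted p = 2.15e-04). Hepacam ran from 59.3 to 785 CPM in adults with a median of 616, and from 25.9 to 235 CPM at P1 with a median of 112. Here 7 of 9 adult libraries lay above every P1 library, and the difference was 1.96 ± 0.33 (3.90-fold, edgeR adjusted p = 5.68e-06). Medians at P4, P7, P14 and P35 were 150, 56.8, 156 and 142 CPM for Mlc1 and 209, 140, 563 and 347 CPM for Hepacam. The P7 median of Mlc1 was thus the lowest of its 6 medians, at an age where 4 of 12 libraries came from the second run alone.

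Clcn2 encodes the chloride channel that GlialCAM binds. It ran from 8.41 to 23.4 CPM in adults with a median of 12.6, and from 4.72 to 10.6 CPM at P1 with a median of 8.90. Of 9 adult libraries, 6 lay above every P1 library, and the medians at P4, P7, P14 and P35 were 5.37, 6.59, 7.70 and 11.3 CPM. The fitted difference of 0.65 ± 0.30 (log2 ± SE) did not pass (edgeR adjusted p = 0.0782, 95% interval 0.05 to 1.25 before adjustment). It passed without the 15 doubtful libraries, at 0.84 (adjusted p = 0.0221), and on leaving out P1 female 4, P1 male 4 or adult female 3 alone, at 0.75 to 0.86 (adjusted p = 0.0236 to 0.0466).

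Of the dystrophin-associated members, Dtna rose and Dag1 did not pass the test. Dtna, alpha-dystrobrevin, ran from 105 to 268 CPM in adults with a median of 209, and from 0.0703 to 159 CPM at P1 with a median of 72.2. In all, 7 of 9 adult libraries exceeded every P1 library, and the difference was 1.40 ± 0.35 (log2 ± SE, 2.64-fold, edgeR adjusted p = 0.00137). The lowest P1 value is again P1 female 4, with 1 count of Dtna, and the other 7 P1 libraries began at 46.5 CPM. Its medians were 101 CPM at P4, 129 at P7, 169 at P14 and 154 at P35. Dag1, dystroglycan, ran from 21.8 to 44.3 CPM in adults with a median of 27.2, and from 16.1 to 64.0 CPM at P1 with a median of 23.6. The adult range lay inside the P1 range, and the difference was -0.02 ± 0.20 (edgeR adjusted p = 0.942, 95% interval -0.44 to 0.39 before adjustment). Dystroglycan medians at P4, P7, P14 and P35 were 30.1, 27.7, 29.4 and 40.2 CPM.

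In adults against P1, 6 of the 8 members rose and none fell at an adjusted p under 0.05, where 41.3% of all genes were called, 21.8% higher and 19.5% lower. The median log2 difference was 1.45 over the members and 0.06 over all genes. Within each of the 5 replicate sets with both ages, the mean of the adult libraries was above that of the P1 libraries for Aqp4, Kcnj10, Kcnj16, Mlc1, Hepacam, Dtna and Clcn2, and for Dag1 in 3 of 5 sets. These sets held 2 adult and 2 P1 libraries, except set 2 with 1 P1 library and set 6 with 1 library of each age. In set 6, Aqp4 stood at 27.8 CPM in the adult and 25.7 CPM in the P1 library. Within-set differences ran from 0.11 to 2.55 for Aqp4, from 1.43 to 5.38 for Kcnj10, and from 2.06 to 5.59 for Kcnj16 on the log2 scale. For Hepacam they ran from 0.27 in set 6 to 2.64 in set 3. Leaving out any 1 of the 53 libraries kept all 6 calls. Without the set in the model, Aqp4 (adjusted p = 0.0660) and Mlc1 (adjusted p = 0.143) no longer passed, and with sets 1, 2 and 4 alone Dtna did not (adjusted p = 0.0956, all by edgeR).

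**Figure D2:**
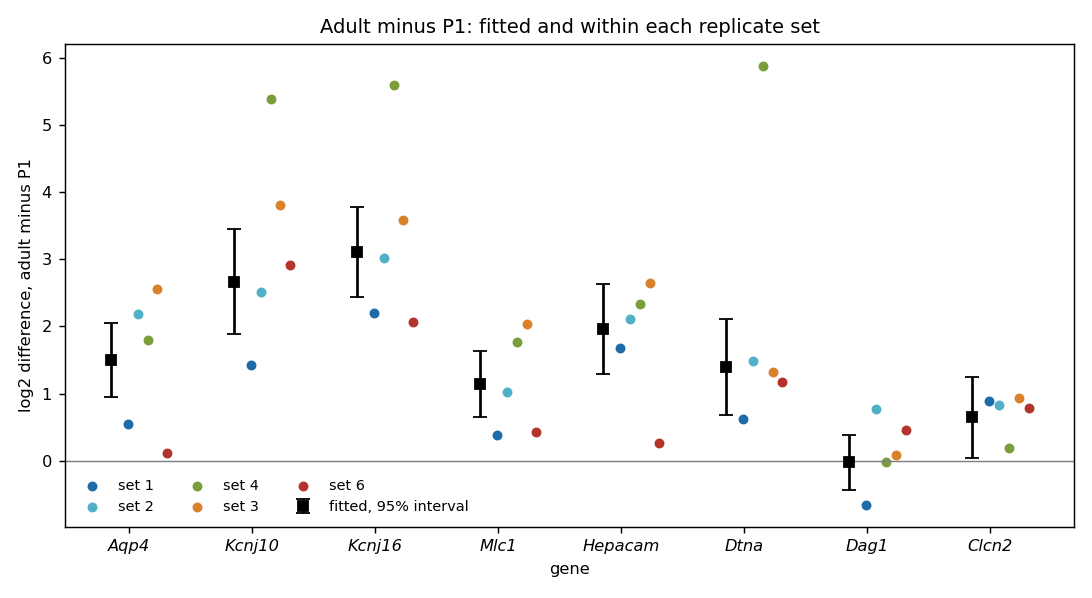
Log2 difference of adult minus P1 for each gene. Squares are the fitted values with their 95% intervals, and circles are differences of mean log2 levels within each of 5 replicate sets, which are above 0 in 5 of 5 sets for every gene except Dag1. Circles of set 6 compare 1 adult with 1 P1 library. The circles of Kcnj10, Kcnj16 and Dtna above 5 are those of set 4, which holds P1 female 4 with its 1, 4 and 1 counts of these genes.

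Neighbouring ages were compared as well. At P4 against P1, 2 of the 8 members passed, Aqp4 by 1.23 ± 0.28 (edgeR adjusted p = 0.0278) and Kcnj16 by 1.41 ± 0.32 (adjusted p = 0.0281), where 0.440% of all genes were called, 0.242% higher and 0.199% lower. Both calls are close to the threshold. Leaving out 1 library ended the call of Aqp4 in 12 of 53 cases and of Kcnj16 in 10 of 53, and neither passed without the set in the model. Differences of P4 minus P1 did not pass for Hepacam (0.91 ± 0.33), Mlc1 (0.66 ± 0.25), Dtna (0.62 ± 0.36), Kcnj10 (0.56 ± 0.38), Dag1 (0.03 ± 0.21) or Clcn2 (-0.62 ± 0.31), all log2 ± SE. After P4, 0 of the 8 members passed by edgeR in any of the 4 later steps. An unadjusted p under 0.05 was reached by 1 member (Kcnj16) at P7 against P4, by 2 (Kcnj16 and Hepacam) at P14 against P7 and by 0 in the other 2 steps. At P7 against P4, 1.67% of all genes were called (1.25% higher, 0.417% lower), and at P14 against P7 3.30% (1.65% higher, 1.65% lower). At P35 against P14 it was 1.15% (0.336% higher, 0.810% lower), and at adult against P35 0%, where 884 genes had an unadjusted p under 0.05 and DESeq2 called 114. Nearest to a call was Hepacam at P14 against P7 (1.08 ± 0.33, adjusted p = 0.0557), which DESeq2 called (adjusted p = 0.0118). Kcnj10 and Kcnj16 moved by 0.56 to 0.72 and by 0.45 to 1.41 in each of the first 4 steps, and by 0.11 and -0.04 at adult against P35, while Aqp4 moved by 0.24 or less in each step after P4.

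**Figure D3:**
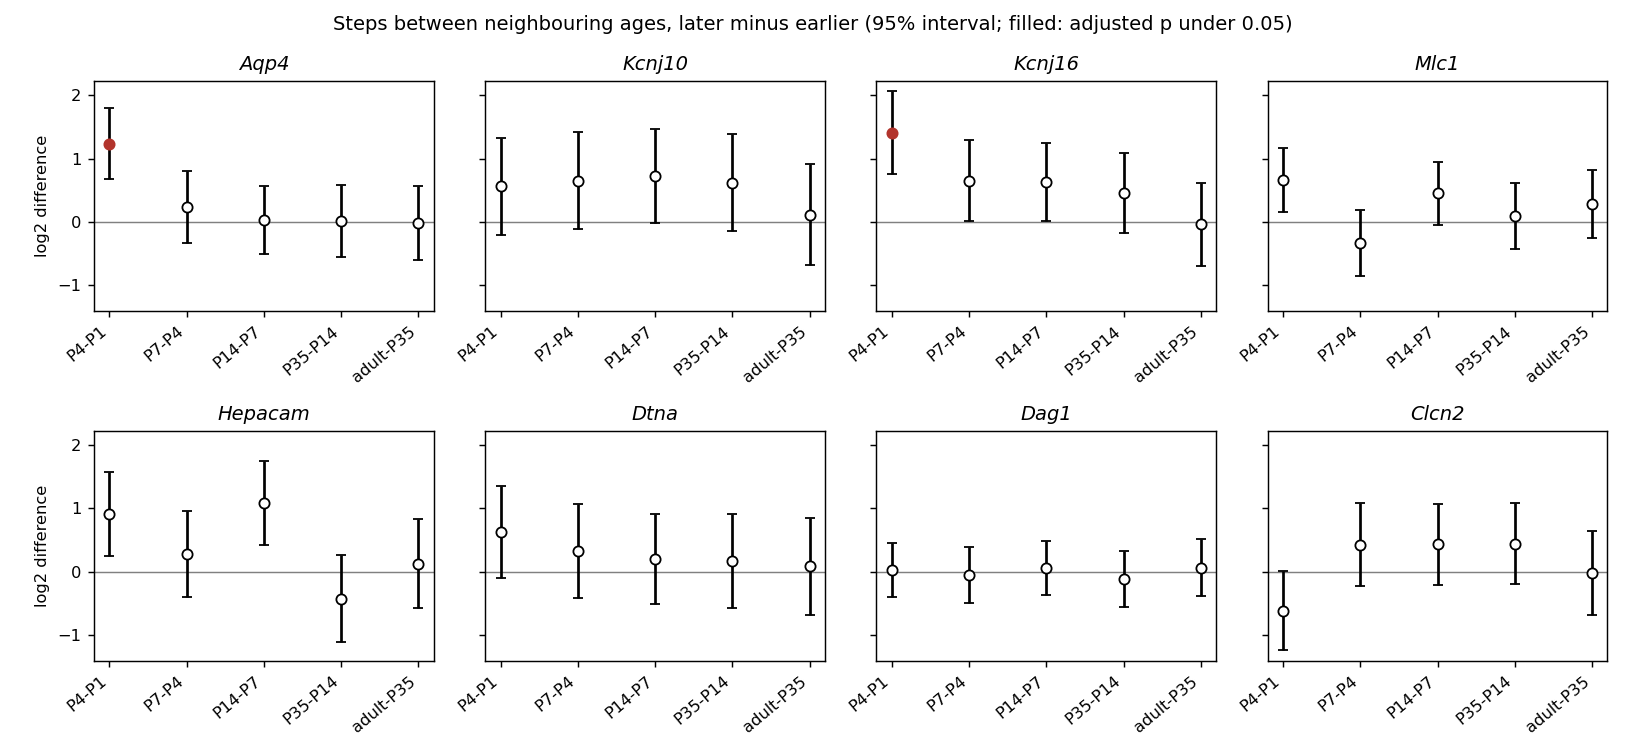
Fitted log2 difference between each pair of neighbouring ages, later minus earlier, with its 95% interval, for each gene. Filled points, at P4 minus P1 for Aqp4 (1.23) and Kcnj16 (1.41), passed an adjusted p under 0.05, and open points did not. Intervals of Dag1 span 0 in all 5 steps.

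With ages pooled, the mean of P14, P35 and adult was compared with the mean of P1, P4 and P7. In this comparison 7 of the 8 members rose, where 48.5% of all genes were called, 25.1% higher and 23.5% lower. It shares its libraries with the comparisons above. Kcnj16 differed by 1.83 ± 0.19, Kcnj10 by 1.79 ± 0.22 and Hepacam by 1.33 ± 0.20 (log2 ± SE). Smaller differences were those of Clcn2 (0.79 ± 0.18, edgeR adjusted p = 4.16e-04), Dtna (0.77 ± 0.21), Aqp4 (0.61 ± 0.16) and Mlc1 (0.60 ± 0.15). Dag1 differed by -0.03 ± 0.12 (adjusted p = 0.895). A test of any difference among the 6 ages called the same 7 genes and not Dag1 (edgeR adjusted p = 0.997), where 43.5% of all genes were called. Without the set in the model that test called 3 of 8 members.

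Ratios between pairs of members within a library were compared as well. They do not remove differences in purity where the members of a pair follow the astrocyte markers unequally: r with the summed markers over the 53 libraries was 0.90 for Hepacam but 0.07 for Clcn2 and 0.21 for Dag1. A ratio is the log2 of counts of one gene over the other. For 5 pairs, 9 adult and 8 P1 libraries were compared by an exact two-sided permutation test, adjusted over the 5. This test permutes ages over all these libraries and leaves the replicate set out. Aqp4 over Kcnj10 averaged 1.66 ± 0.89 in adults and 3.46 ± 2.27 at P1 (SD), a difference of -1.79 (exact permutation, adjusted p = 0.00761). It was negative in all 5 replicate sets, from -3.84 to -0.34. Without P1 female 4, whose ratio of 8.88 stands far above the rest, the difference was -1.02 (adjusted p = 0.0262). Kcnj16 over Kcnj10 averaged -0.77 ± 0.53 in adults and -0.93 ± 1.47 at P1, and the difference of 0.16 did not pass (exact permutation, adjusted p = 0.773). Without P1 male 4 its sign turned, to -0.23.

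Hepacam over Mlc1 averaged 1.05 ± 0.47 in adults and 0.27 ± 0.39 at P1, a difference of 0.79 (exact permutation, adjusted p = 0.00761) that was positive in 4 of 5 sets and -0.17 in set 6. The medians of this ratio were 0.25, 0.43, 1.34, 1.69, 1.29 and 0.99 from P1 through adult, so its highest median was at P14. Dtna over Dag1 averaged 2.73 ± 0.53 in adults and 0.34 ± 3.30 at P1, a difference of 2.39 (exact permutation, adjusted p = 8.23e-04), positive in 5 of 5 sets. Without P1 female 4 it was 1.24 (adjusted p = 0.00262). Clcn2 over Hepacam averaged -4.90 ± 1.61 in adults and -3.52 ± 1.52 at P1, and did not pass (difference -1.38, exact permutation, adjusted p = 0.113).

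Splitting the span at P4 was chosen after the time courses were seen, with p-values adjusted over 10 tests. Aqp4 over Kcnj10 averaged 3.50 ± 0.47 at P4 and 3.46 ± 2.27 at P1, a difference of 0.04 (exact permutation, adjusted p = 0.989). Without P1 female 4 the P1 mean was 2.69 ± 0.65 (n = 7) and the difference 0.82 (exact permutation, adjusted p = 0.0523), and the medians of all libraries were 3.43 at P4 and 2.63 at P1. Adults against P4 differed by -1.84 (exact permutation, adjusted p = 0.00123). The other 4 ratios passed in neither comparison, and at P4 against P1 they did not pass without P1 female 4 either.

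**Figure D4:**
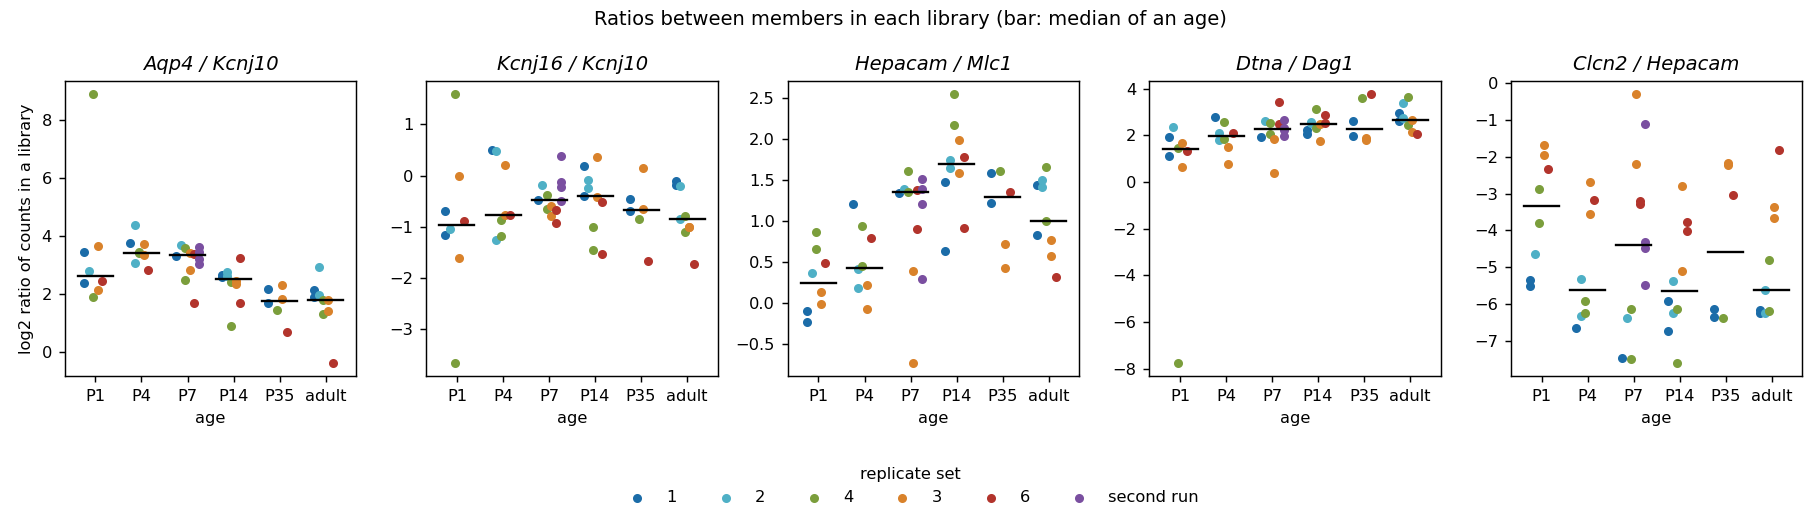
Log2 ratio of counts of 2 members in each of 53 libraries by age, coloured by replicate set, with bars at the median of an age. Aqp4 over Kcnj10 has its highest median at P4 (3.43) and its lowest 2 at P35 (1.76) and in adults (1.81); P1 female 4 is the lone point at 8.88 there and at -7.73 for Dtna over Dag1.

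Members were also ranked by level per length, where the length counts all annotated exons of a gene together. Dtna had 16930 such bases and the other members 2801 to 6357. No single transcript need have that length, so these ranks, that of Dtna above all, depend on it. In adults, medians per kilobase of exon were 184 CPM for Hepacam, 80.1 for Mlc1, 39.8 for Aqp4, 12.4 for Dtna, 11.8 for Kcnj10, 10.5 for Kcnj16, 4.28 for Dag1 and 2.09 for Clcn2. At P1 they were 33.4 for Hepacam, 24.3 for Mlc1, 7.48 for Aqp4, 4.27 for Dtna, 3.72 for Dag1, 1.60 for Kcnj10, 1.48 for Clcn2 and 0.553 for Kcnj16, in CPM per kilobase. The top 4 kept their places, while both potassium channels stood above Dag1 in adults and below it at P1. Neighbours in these orders had overlapping ranges of libraries, such as 6.21 to 15.8 for Dtna and 5.39 to 16.0 for Kcnj10 in adults.

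Replicate sets differed strongly. Over all sets, 7 of the 8 members were called, where 69.1% of all genes were, and Dtna was not (edgeR adjusted p = 0.109). Against set 1 alone, Dtna was called lower in set 3 (-0.74 ± 0.31, edgeR adjusted p = 0.0408) and set 6 (-1.05 ± 0.37, adjusted p = 0.0241). Dag1 was called lower in set 4 (-0.84 ± 0.19, edgeR adjusted p = 0.00206) and set 6 (-1.28 ± 0.22, adjusted p = 1.08e-05), but not in set 3 (-0.09 ± 0.19). Relative to set 1, Aqp4 was lower by 2.01 ± 0.25 in set 3, 1.45 ± 0.25 in set 4, 2.92 ± 0.30 in set 6 and 2.01 ± 0.40 in the second run (log2 ± SE, sex and age in the model). Clcn2 went the other way in set 3, at 1.41 ± 0.28 above set 1 (edgeR adjusted p = 4.85e-05). It was not called in set 2 (0.32 ± 0.30), set 4 (0.19 ± 0.28), set 6 (0.62 ± 0.32) or the second run (0.64 ± 0.45). Markers moved with the sets. In set 3, 12 of 12 astrocyte markers were lower than in set 1 (median log2 difference -1.53) and 12 of 12 neuronal markers higher (1.80), among 53% of genes called. In set 6, 12 of 12 astrocyte markers were lower (-2.38) and 11 of 12 neuronal markers higher (1.64), among 34.3% of genes called. Summed neuronal markers ran from 4742 to 9802 CPM in set 3 and from 7388 to 12028 in set 6, against 1726 to 3903 CPM in set 1. Between sets 2 and 1, 0 genes passed by edgeR, while unadjusted p-values were 0.0332 for Kcnj16, 0.0154 for Mlc1 and 0.0114 for Dag1.

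**Figure D5:**
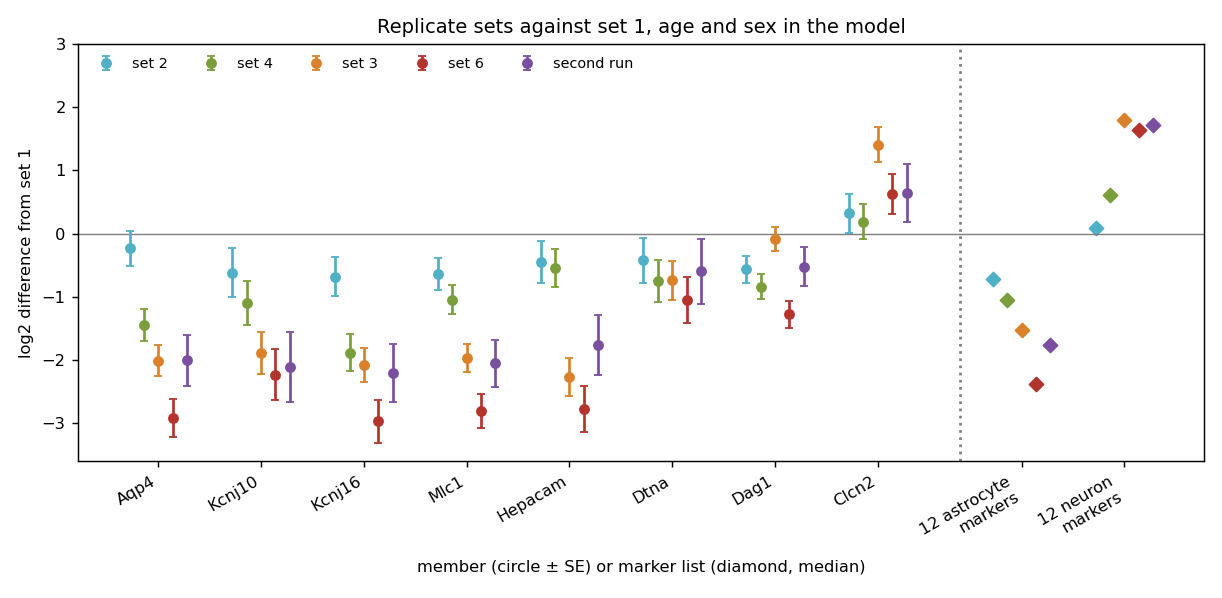
Log2 difference of each replicate set from set 1 with age and sex in the model, for the 8 genes (circles, bars are SE) and as the median over 12 astrocyte and 12 neuronal markers (diamonds). Aqp4, Kcnj10, Kcnj16, Mlc1 and Hepacam lie with the astrocyte markers below 0 in sets 3, 6 and the second run, and Clcn2 lies above 0. Dtna and Dag1 are below 0 there as well, Dag1 by little in set 3 (-0.09).

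No member passed the test between libraries labelled female and male. Over all ages, 0 of 8 members passed by edgeR, where 0.0284% of all genes did (6 genes, and 453 at an unadjusted p under 0.05, while DESeq2 called 101). Differences of female minus male ran from -0.11 for Clcn2 to 0.26 ± 0.16 for Aqp4 (95% interval -0.06 to 0.58 before adjustment). In the test of sex by age, 0 of 8 members and 0% of all genes passed by edgeR, with 778 genes at an unadjusted p under 0.05 and 2 called by DESeq2. The unadjusted p was 0.0418 for Aqp4 and 0.269 or more for the other members. Aqp4 ran at 25.3, 25.7, 49.6 and 381 CPM in P1 libraries labelled female, and at 20.1, 43.6, 85.6 and 132 CPM in those labelled male. In adults it ran from 78.6 to 342 CPM in libraries labelled female and from 27.8 to 444 in those labelled male. The sexes overlapped at both ages, and female minus male was 0.91 ± 0.39 at P1 and -0.69 ± 0.37 in adults (edgeR adjusted p = 0.647 and 1.00). These are labelled sexes, and sex-linked transcripts of 12 libraries went against or between them.

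Other genes of the dystrophin complex moved in part with age. Of 15 measured besides Dtna and Dag1, 5 rose, 1 fell and 9 did not pass in adults against P1, with a median of 0.86 (log2) against 0.06 over all genes, of which 21.8% rose and 19.5% fell. Dmd, dystrophin, averaged 73.3 ± 18.5 CPM in adults and 28.2 ± 14.7 at P1 (SD), a log2 difference of 1.52 ± 0.20 (SE, edgeR adjusted p = 3.52e-08). Utrn, its homologue utrophin, averaged 31.9 ± 14.6 CPM in adults and 12.6 ± 8.16 at P1 (1.47 ± 0.33), and the sarcoglycan gene Sgcz rose by 1.73 ± 0.56. Sntg2, named after its value was seen, fell by 1.56 ± 0.63 (edgeR adjusted p = 0.0419), with 2.73 ± 2.04 CPM in adults and 11.7 ± 24.6 at P1.

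Dystroglycan binds its ligands outside the cell through sugar chains. Among the genes that build these chains, B4gat1 (0.82 ± 0.37, log2 ± SE) and Large (0.78 ± 0.36) did not pass in adults against P1. Of 7 ligands, 0 rose and 2 fell (median -0.27), where 21.8% of all genes rose and 19.5% fell. Agrn, agrin, averaged 19.7 ± 12.9 CPM in adults and 44.6 ± 37.8 at P1 (log2 difference -0.99 ± 0.29, edgeR adjusted p = 0.00543). Lama1, a laminin chain, averaged 0.232 ± 0.267 CPM in adults and 1.01 ± 1.16 at P1 (-1.96 ± 0.81).

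Among 9 measured partners of Mlc1 and Hepacam and genes of volume regulation, 4 rose and 2 fell (median 0.67). Over all genes, 21.8% rose and 19.5% fell. Gpr37l1, a receptor of astrocytes that binds both proteins, averaged 573 ± 293 CPM in adults and 36.6 ± 59.8 at P1, a difference of 4.75 ± 0.39 (edgeR adjusted p = 9.58e-13). The receptor gene Gprc5b rose by 2.76 ± 0.44 and Atp1b1, a sodium pump subunit, by 1.40 ± 0.28. Cav1, caveolin, averaged 9.65 ± 5.60 CPM in adults and 30.0 ± 16.8 at P1 (log2 difference -1.87 ± 0.31).

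Of 11 other inward rectifier genes, 6 rose and 0 fell (median 1.55), where 21.8% of all genes rose and 19.5% fell. Kcnj9 averaged 31.4 ± 17.6 CPM in adults and 4.75 ± 3.74 at P1 (log2 difference 2.71 ± 0.38), and Kcnj4 averaged 19.1 ± 9.34 CPM in adults and 2.16 ± 1.86 at P1 (3.48 ± 0.55). Kcnj14 (2.95 ± 0.78) and Kcnj11 (2.00 ± 0.63) stayed under 5 CPM on average. Kcnj9 and Kcnj4 are channels known from neurons, and 8 of 12 neuronal markers rose and 3 fell between the same ages, while 7 of 7 oligodendrocyte markers and 11 of 12 astrocyte markers rose. The part of these cells in the channel values was not tested. Of 6 other aquaporins, 2 rose and 0 fell, against the same shares of all genes. Those that rose were Aqp11 (1.21 ± 0.39) and Aqp2 (2.29 ± 0.95), with adult means of 10.3 and 1.43 CPM, against 237 CPM for Aqp4. Of 6 other CLC genes, 0 passed by edgeR, where 41.3% of all genes did. The most abundant ones, Clcn4 (87.0 ± 16.5 CPM in adults, 93.9 ± 43.1 at P1) and Clcn3 (99.0 ± 30.0 in adults, 101 ± 41.7 at P1), differed by 0.00 ± 0.21 and -0.08 ± 0.19.

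Members also varied together across the 53 libraries, which share age, set and purity, so correlations are given as descriptions with no test. Pearson's r of log2 CPM was 0.90 for Kcnj10 and Kcnj16 and 0.90 for Mlc1 and Hepacam, and 0.78 and 0.74 after age, sex and set were taken out. The highest value after that step was 0.86, for Kcnj10 and Dtna, and Kcnj16 and Dtna had 0.78. These rest on P1 female 4: without it the values were 0.18 for Kcnj10 and Dtna, 0.53 for Kcnj16 and Dtna and 0.45 for Kcnj10 and Kcnj16, against 0.72 for Mlc1 and Hepacam. Aqp4 and Mlc1 had 0.88 before and 0.74 after, and Aqp4 and Kcnj10 0.69 and 0.37 (0.76 and 0.46 without that library). Dag1 reached at most 0.41 before, with Mlc1, and 0.44 after, with Clcn2. Clcn2 reached at most 0.30 before and 0.44 after, both with Dag1. With the summed neuronal markers, r was -0.84 for Mlc1 and 0.48 for Clcn2, and with the summed astrocyte markers it was 0.90 for Hepacam and 0.07 for Clcn2. Of 9 marker sums, Clcn2 had its strongest correlation with that of the 4 oligodendrocyte progenitor markers, at -0.80. Among 11061 genes with a mean of at least 5 CPM, those most alike in log2 CPM were Tmem229a for Aqp4 (r = 0.91), Pbxip1 for Kcnj10 (0.95), Fgf1 for Kcnj16 (0.94), Mmd2 for Mlc1 (0.95), Rgs20 for Hepacam (0.97), Fam63b for Dtna (0.98), Stt3b for Dag1 (0.80) and Mmp17 for Clcn2 (0.83). The next most alike were Rcn2 and Paqr4 for Aqp4, Eva1a and Lcat for Kcnj10, Sdc4 and Eva1a for Kcnj16, and Cd63 and Slc27a1 for Mlc1. They were Asrgl1 and Prdx6 for Hepacam, Fnbp1 and Phkb for Dtna, Adcyap1r1 and Calr for Dag1, and Syp and Gria1, both genes of synapses, for Clcn2. Without P1 female 4, r with the gene most alike was 0.89 for Dtna and 0.83 to 0.97 for the other members.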

How the data were processed

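The authors deposited raw counts, as whole numbers, for 21118 genes in 53 libraries, with 1 column for each animal. The submitters' processing notes name CASAVA, HISAT2, SAMtools, featureCounts and the build GRCm38.p5. Neither the annotation release nor the strand setting of the counting is stated in the labels. Gene positions and lengths came from GENCODE M21 (99.5% of identifiers found). At P7, 4 animals were sequenced in 2 runs and have 1 column each, used as it stands.

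All libraries were fitted together with edgeR 4.0.16 in R 4.3.3 (TMM scaling, robust quasi-likelihood F test), with 12 groups of age and sex and the replicate set as terms. Age comparisons are means of both sexes, adjusted by Benjamini-Hochberg over 21118 genes, with a threshold of 0.05. CPM use TMM-scaled library sizes, log2 CPM a prior count of 2, and ratios add 0.5 to each count. Leave-one-out fits kept the trended dispersions of the full fit. P-values of edgeR set each difference against the spread between these libraries that remains after the group and set terms. Those of the ratios come from permuting ages over libraries.

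Alternatives were DESeq2 1.42.0, limma 3.58.1 (voom), other scalings and filters, no set term, and libraries left out. Leaving P1 female 4 out of the correlations and of the P4 ratios was chosen after the values were seen. The members and all lists were chosen with earlier results of these data known. The text names all 8 members, up to 4 genes per list by adjusted p in adult minus P1 (by mean level where none passed), Dmd and Utrn, and 3 genes most alike to each member. Some genes that this rule names are not reported here.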

Additional observations from a re-analysis of the deposited data

Results flagged for a closer look

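Within each group of 4 to 10 libraries, the highest or lowest CPM, not on a log scale, was set against the gap that Dixon's test allows. About 1 in 20 groups exceeds that gap where values are normally distributed and come from 1 population. That rate cannot be assumed here, since CPM are skewed and each group pools replicate sets that differ strongly. Over 80 such groups of the 8 members, 12 libraries' values lay beyond it.

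Of these, 8 were high values of 2 libraries labelled female, each the only library of set 1 in its group. In P1 female 1, Aqp4 stood at 381 CPM (the other 3 libraries 25.3 to 49.6), Kcnj10 at 35.1 CPM (0.0703 to 5.73), Kcnj16 at 21.8 CPM (0.281 to 2.49) and Mlc1 at 251 CPM (35.3 to 43.3). In P7 female 10, Aqp4 stood at 459 CPM (the other 7 libraries 91.2 to 234), Kcnj10 at 46.0 CPM (9.14 to 23.4), Kcnj16 at 33.1 CPM (4.80 to 14.9) and Mlc1 at 260 CPM (32.7 to 140). The description of P7 female 10 carries the letter of the other sex, and its sex-linked transcripts lay between the labelled sexes.

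The other 4 lay in sets 3 and 6. Dtna was low in P14 female 6, at 116 CPM (the other 4 libraries 176 to 199). In P7 female 3, Dag1 stood at 71.3 CPM (17.8 to 43.2) and Clcn2 at 25.0 CPM (1.92 to 10.5). Clcn2 stood at 23.6 CPM in P14 male 3 (the other 4 libraries 6.49 to 10.6).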

How the results depend on the processing

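In adults against P1, Kcnj10, Kcnj16 and Hepacam passed under all 15 other settings (log2 differences 2.25 to 2.92, 2.80 to 3.19 and 1.82 to 2.07), and Aqp4, Mlc1 and Dtna under 14 of 15 (1.21 to 1.63, 0.98 to 1.19 and 1.04 to 1.72). Clcn2 passed under 4 of 15, among them DESeq2 (0.70, adjusted p = 0.0340) and voom (0.72, adjusted p = 0.0435). Library totals as scaling moved the median of all genes by -0.12.

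Set numbers are shared across groups. In 223 pairs of libraries with the same number in other groups, the deviations from group means correlated with a median r of 0.46 (lowest -0.18, 93.7% over 0.1), and in 1055 pairs with other numbers the median was -0.12. This is a hint from the data that the numbers pair libraries, not part of the stated design. With no replicate block, the age test called 3 members (7 with it), P4 against P1 called 0 (2 with it), and Aqp4 (0.56, adjusted p = 0.182) and Mlc1 (0.63, adjusted p = 0.0947) lost their calls in late against early ages. Ratios averaged within sets differed by -1.83 for Aqp4/Kcnj10, 0.68 for Hepacam/Mlc1, -1.08 for Clcn2/Hepacam, 2.02 for Dtna/Dag1 and 0.07 for Kcnj16/Kcnj10. In set 4, which holds P1 female 4, Aqp4/Kcnj10 differed by -3.84 and Dtna/Dag1 by 6.15. The other sets ran from -2.82 to -0.34 and from 0.72 to 1.28, so both averages lean on set 4.

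With sets 1, 2 and 4 alone, the age test called 4 members and P4 against P1 called 0, and Aqp4 (0.45) and Dtna (0.92) did not pass in late against early ages. For P4 against P1, library totals gave 0 members, and leaving out the libraries of doubtful sex or those with the fewest genes gave 1 each. For P14 against P7, 1 member, Hepacam, passed with DESeq2 size factors, DESeq2, a filter of 1 CPM in 3 libraries, ages alone, and without P7 male 6 and P14 male 6 (0 in the fit reported). The causes were not tested.

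Dag1, which passed in none of these, changed sign in P4 against P1 with no replicate block (-0.12), voom (-0.022), without doubtful sex (-0.079), in sets 1, 2 and 4 (-0.14) and without all 15 libraries (-0.089). In adults against P1 it did so with DESeq2 size factors (0.028) and DESeq2 (0.028), and in late against early ages with no block (0.059), DESeq2 size factors (0.043), DESeq2 (0.043) and sets 1, 2 and 4 (0.022).

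Leaving out 1 library gave 6 to 7 members in adults against P1, 0 to 2 in P4 against P1 and 0 to 1 in P14 against P7. For P4 against P1, Aqp4 and Kcnj16 both lost the call (adjusted p = 0.0508 to 0.0877) without P1 male 2, 3 or 4, P1 female 3, P4 male 1, 2 or 3, or P4 female 3, 4 or 6, and Aqp4 also without P1 female 4 or P4 male 4. Dag1 ran from -0.14 to 0.17 in adults against P1, -0.094 to 0.20 in P4 against P1 and -0.072 to 0.074 in late against early ages. Ratios ran from -0.23 to 0.52 for Kcnj16/Kcnj10 and -1.76 to -1.12 for Clcn2/Hepacam, which passed without adult male 60 (exact permutation, adjusted p = 0.0315).

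Counts over all genes ranged under other settings from 4700 to 11286 for the age test (9190 reported), 5600 to 10054 for adults against P1 (8718), 6702 to 11732 for late against early ages (10252), 0 to 670 for P4 against P1 (93), 0 to 1093 for P7 against P4 (352), 4 to 2513 for P14 against P7 (697), 0 to 1049 for P35 against P14 (242), 0 to 114 for adult against P35 (0), 0 to 101 for sex (6) and 0 to 2 for sex by age (0). A general filter on low counts removed 0 genes.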

Other observations

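Of the 12 astrocyte markers, 11 rose between P1 and adult, with a median log2 difference of 2.47 over the 12, against 1.45 over the members. Aldh1l1, whose control the tag is under, did not pass (0.51 ± 0.28, SE, edgeR adjusted p = 0.145). Each member's level was also expressed as a percentage of the summed astrocyte markers of its library, a description chosen after the levels were seen and given with no test. Aqp4 came to a median of 1.74% in adults (0.592 to 2.93%) and 3.79% at P1 (2.09 to 8.02%). Its medians at P4, P7, P14 and P35 were 5.21, 5.01, 2.34 and 1.95%. Mlc1 came to 1.48% in adults (1.05 to 2.16%) and 5.18% at P1 (2.45 to 6.84%), so that the libraries of the ages did not overlap. Within each of the 5 replicate sets, Aqp4, Mlc1, Hepacam, Dtna, Dag1 and Clcn2 made up a smaller percentage in adults than at P1. The sum is weighted to abundant markers that themselves rose: Aldoc averaged 6612 CPM in adults and 649 at P1, and Glul 2207 and 194. Any gene that rose less than the sum falls as a percentage, so these values are not levels per astrocyte.

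For the potassium channels the sets were divided. Kcnj10 came to a median of 0.463% in adults (0.240 to 1.03%) and 0.660% at P1 (0.00730 to 0.737%), and was lower in adults in 3 of 5 sets and higher in 2. Kcnj16 came to 0.311% in adults (0.111 to 0.421%) and 0.243% at P1 (0.0292 to 0.459%), and was higher in adults in 3 of 5 sets. Across the 6 ages the medians of Kcnj10 stayed between 0.437 and 0.660%. These percentages depend on the 12 markers chosen.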
